A study of Mus musculus with 6 samples.

Results

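The Obox genes (oocyte-specific homeobox genes) form a mouse family of egg transcription factors, and their messenger RNA was followed in metaphase II (MII) eggs expressing 1 of 3 tagged forms of histone H3.3. The members were the 5 genes whose rows in the deposited count table carry the symbols Obox1, Obox2, Obox5, Obox3 and Obox6, of 24062 genes in all. Obox1, Obox2 and Obox5 each supplied between 1894 and 4203 CPM (counts scaled to an equal library total) in every library, whereas Obox3 and Obox6 were at or near 0. None of the 3 expressed members passed the test between any pair of groups. Of all 10667 genes tested, 0% to 0.619% passed, depending on the pair. A sixth gene, Obox7, stands in the table under its former symbol Gm4745 and was added after the table had been examined.

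Obox proteins bind DNA through a homeodomain, a fold of 3 helices whose last helix lies in the major groove of the DNA. Obox1, Obox2, Obox5 and Obox7 are known as maternal members, transcribed in the growing oocyte and inherited by the embryo, whereas Obox3 is known mainly for transcription in the early embryo after fertilization. The family is known for a role in switching on the embryonic genome together with RNA polymerase II. H3.3 is the replacement form of histone H3, placed on chromatin outside DNA replication.

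All eggs came from super-ovulated females, 8 weeks old, of the line HISRainbow;Figla-iCre. Figla-iCre is a recombinase driven by an oocyte promoter, and HISRainbow is the multicolour transgene from which each egg expressed 1 form. The H3.3 group expressed H3.3-eGFP, the unmutated histone with its tag. The K27R group expressed H3.3K27R-mCherry, in which lysine 27 is replaced by arginine, and the R26K group expressed H3.3R26K-eCFP, in which arginine 26 is replaced by lysine. Each form had its own fluorescent tag, so the effect of a tag and that of a substitution cannot be told apart, and the labels describe no loss of the eggs' own H3.3 genes. Eggs were assigned by their colour under a confocal microscope. Each group had 2 libraries; how many eggs and females went into each is not given in the labels. Libraries held 10803477 to 39603440 counts, with the R26K libraries the deepest, and 7392 to 12135 genes with a count. The 12 egg markers, among them the zona pellucida genes and Gdf9, summed to 46940 to 63509 CPM per library, with 11 or 12 detected in each. Of 18 markers of the surrounding cumulus and granulosa cells, 3 and 10 were detected in the pair of H3.3 libraries, 11 and 3 in the K27R pair, and 15 and 12 in the R26K pair. Their summed level was 965 and 1820 CPM in H3.3 eggs, 1945 and 1410 CPM in K27R eggs, and 2088 and 2037 CPM in R26K eggs, most of it from Serpine2, a secreted protease inhibitor. Of the 18, 17 had a count in some library, and only Lhcgr, the luteinizing hormone receptor gene, was at 0 throughout. Among the other markers, Ptgs2 and Hsd17b1 differed between groups, whereas Tnfaip6 and Inha were uneven within pairs. Ptgs2 stood at 23.8 and 31.4 CPM in H3.3 eggs, 0 and 0 CPM in K27R eggs, and 5.02 and 0 CPM in R26K eggs. Hsd17b1 stood at 0 and 0 CPM in H3.3 eggs, 0.0814 and 0 CPM in K27R eggs, and 1.87 and 2.36 CPM in R26K eggs. Tnfaip6 stood at 0 and 186 CPM in H3.3 eggs and at 86.9 and 0 CPM in K27R eggs. In R26K eggs it was at 29.4 and 11.0 CPM. Inha stood at 0 and 97.5 CPM in H3.3 eggs and at 83.0 and 0 CPM in K27R eggs. In R26K eggs Inha was at 25.3 and 53.5 CPM. Of the 18, 12 could be tested and 0 passed edgeR's test, described below, in any comparison. At an unadjusted p under 0.05 there were 3 in R26K against H3.3, beside 21.7% of all genes tested. There were 2 in K27R against H3.3, beside 7.12%, and 0 in K27R against R26K, beside 13.2%.

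The family lies on mouse chromosome 7 (build mm10), where the 6 genes span 1180 kb between positions 14659708 and 15839679, together with 48 annotated Obox pseudogenes. From the lower coordinate, the order is Obox7 (14659708 to 14665996, plus strand), Obox2 (15388851 to 15398545, plus), Obox1 (15547257 to 15556846, plus), Obox3 (15625306 to 15639777, minus), Obox5 (15750370 to 15759274, plus) and Obox6 (15833250 to 15839679, minus). These positions are those of RefSeq on GRCm38.p6, the same assembly as mm10. The coding stretch around the third helix of the homeodomain is printed for all 6 genes, because it shows how little separates them. Capitals mark the 18 bases that, in the frame of Obox1, encode tryptophan, phenylalanine, any residue, asparagine, any residue and arginine, the signature of a homeodomain's recognition helix. They encode this signature in the annotated frame of every gene shown except Obox2. Each stretch has 60 coding bases, read 5′ to 3′ from the mm10 reference, and is interrupted by an intron.
Obox1 (chr7:15555678-15556183, plus strand): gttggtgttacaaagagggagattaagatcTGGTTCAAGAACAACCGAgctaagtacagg
Obox2 (chr7:15397360-15397866, plus strand): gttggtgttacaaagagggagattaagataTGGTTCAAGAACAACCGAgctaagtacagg
Obox5 (chr7:15758052-15758571, plus strand): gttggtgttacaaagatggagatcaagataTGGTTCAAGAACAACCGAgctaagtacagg
Obox7 (chr7:14664553-14665300, plus strand): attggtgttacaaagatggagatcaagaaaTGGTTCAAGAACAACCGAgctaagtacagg
Obox3 (chr7:15626293-15626822, minus strand): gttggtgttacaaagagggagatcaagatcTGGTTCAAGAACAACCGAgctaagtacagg
Obox6 (chr7:15833918-15834406, minus strand): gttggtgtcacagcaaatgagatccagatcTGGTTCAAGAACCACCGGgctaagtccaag

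With positions counted from 1 at the 5′ end of the stretch and the Obox1 base given first, Obox2 differed from Obox1 by C30A and Obox3 by T24C. Obox5 differed by G17T, T24C and C30A, and Obox7 by 5 bases. The capitals were identical in these 5 genes. Obox6 was the most distant, with 12 differences from Obox1, of which A43C and A48G lay in the capitals. Over the aligned coding sequence, Obox1 was 98.5% identical to Obox2, 95.6% to Obox5, 93.8% to Obox7, 94.0% to Obox3 and 78.6% to Obox6.

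The reference Obox2 holds the bases of the helix signature but differed from its relatives in the reading frame. Its exon 3 has 199 bases, against 200 in Obox1, Obox5 and Obox7, and its annotated coding sequence is 453 bases long, against 612 in Obox1, 873 in Obox5 and 654 in Obox7. The bases in capitals above are therefore present in the Obox2 transcript but are not read in the annotated Obox2 frame. The place where the base is missing is printed for Obox2 beside Obox1 and Obox5, within 1 exon in each, with the additional C of Obox1 and Obox5 in capitals.
Obox1 (chr7:15555615-15555655, plus strand): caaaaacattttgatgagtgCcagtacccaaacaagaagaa
Obox2 (chr7:15397298-15397337, plus strand): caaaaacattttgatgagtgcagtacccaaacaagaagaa
Obox5 (chr7:15757989-15758029, plus strand): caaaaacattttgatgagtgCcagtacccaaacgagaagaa

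This is a property of the reference genome, and whether the eggs' strain carries it was not tested.

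Reads of 50 bases separate these genes to unequal degrees. Of all 50-base windows of the Obox1 transcript, 59.3% occurred unchanged in a transcript of another gene, almost always Obox2 (58.0% of the windows). For Obox2 the share was 63.0%, for Obox5 13.0%, for Obox7 20.2%, for Obox3 40.6% and for Obox6 5.02%. Allowing 2 mismatches within the family, the shares were 95.5% for Obox1, 94.0% for Obox2, 62.4% for Obox5, 72.0% for Obox7, 66.0% for Obox3 and 50.2% for Obox6. How the authors treated reads that map to several places is not given in the sources used here, so the split of counts between Obox1 and Obox2 is uncertain. The values of Obox5 rest on the most sequence of its own among the expressed members, with 670 windows that no other Obox transcript matches within 2 mismatches.

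**Figure D1:**
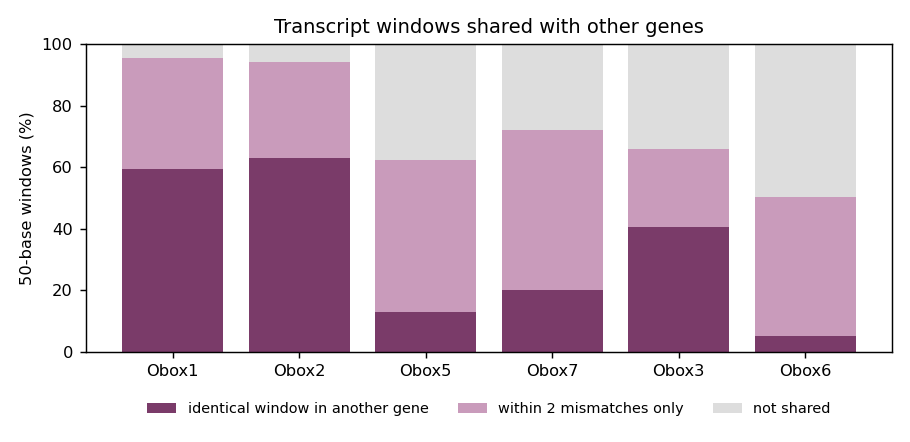
Share of 50-base windows of each Obox transcript, in percent, that occur unchanged in a transcript of another gene (dark), match another Obox transcript within 2 mismatches only (light), or do neither (grey). Obox1 and Obox2 leave the smallest grey share and Obox6 the largest.

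The members also share promoter sequence. In the RefSeq promoter table (GRCm38.p6, 250 bases before to 50 bases after each gene's start), 5 of the 6 genes had an entry. Obox1 and Obox2 shared an identical run of 203 bases in this window, Obox5 and Obox7 one of 134 bases, and Obox1 and Obox5 one of 82 bases. Both strands were searched for the box TATATAA, bound by the general transcription machinery. Also searched were TAATTG or, in place of it, TAATTA (letters of sites bound by the oocyte homeobox factor NOBOX). The E-boxes CACGTG and CAGGTG belong to the class of site bound by FIGLA and were searched too. The last were the letters TAATCC (the kind of site bound by PRD-like factors related to OTX2). TATATAA occurred in Obox1, Obox5, Obox7 and Obox3, and in 3.24% of all 32851 promoters. CAGGTG, in 20.2% of promoters, occurred in Obox2 alone among the 5, and TAATCC, in 7.06%, in Obox3 alone. None of the 5 windows held TAATTG, which 8.00% of all promoters hold. The same was true of TAATTA, held by 5.29% of promoters, and of CACGTG, held by 7.15%. The stretch that holds the TATATAA, in capitals, is shown because it lies in 3 expressed genes with identical letters.
Obox1 (chr7:15547228-15547257, plus strand): tttgcagagaTATATAAgggcaggtcttct
Obox5 (chr7:15750329-15750358, plus strand): tttgcagagaTATATAAgggcaggtcttct
Obox7 (chr7:14659693-14659722, plus strand): tttgcagagaTATATAAgggcaggtcttct
Obox3 (chr7:15639788-15639817, minus strand): tttggagagaTATATAAgggcaggtcttct

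The first T of the capitals lay at -19 from the RefSeq start in Obox1, -31 in Obox5, -5 in Obox7 and -30 in Obox3. A match is a description of letters in this window and says nothing of whether a factor binds there.

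Obox5, a maternal member, had the highest mean CPM of the family, a scale not corrected for transcript length. It stood at 2778 and 2729 CPM in H3.3 eggs, 2359 and 4203 CPM in K27R eggs, and 3426 and 3830 CPM in R26K eggs. Both R26K libraries were above both H3.3 libraries, and the K27R pair held the lowest and the highest value of all. Between R26K and H3.3, 60.1% of all genes tested did not overlap. With a mean of 3221 CPM, Obox5 ranked 33rd among all genes.

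Obox2, the member whose reference frame is shifted, stood at 2166 and 3080 CPM in H3.3 eggs, 2105 and 3947 CPM in K27R eggs, and 3341 and 2814 CPM in R26K eggs. All 3 groups overlapped, and again the K27R libraries were the lowest and the highest. Its mean of 2909 CPM ranked 37th.

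Obox1, the closest relative of Obox2, stood at 2253 and 2578 CPM in H3.3 eggs, 1894 and 2671 CPM in K27R eggs, and 2585 and 2845 CPM in R26K eggs. The R26K libraries were just above the higher H3.3 library, and the K27R libraries spanned both H3.3 libraries. Its mean of 2471 CPM ranked 46th.

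Obox7 (Gm4745), the fourth maternal member, stood at 332 and 407 CPM in H3.3 eggs, 436 and 791 CPM in K27R eggs, and 548 and 610 CPM in R26K eggs. Both H3.3 libraries were below all 4 libraries of the other groups, and K27R replicate 2 was the highest. Of all genes tested, 60.1% did not overlap between R26K and H3.3 and 25.5% between K27R and H3.3. Its mean of 521 CPM ranked 306th.

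Obox3, the member known from the embryo, had 3 and 3 counts in H3.3 eggs, 7 and 0 in K27R eggs, and 2 and 2 in R26K eggs, which is at most 0.570 CPM. Obox6, the most divergent member here, had 0 and 0 counts in H3.3 eggs, 1 and 0 in K27R eggs, and 1 and 1 in R26K eggs, at most 0.0814 CPM. The limit used here for a library with 0 counts was 3 counts, which stand for 0.0815 to 0.285 CPM in these libraries; the upper bound of the exact two-sided 95% Poisson interval for 0 counts is slightly higher, at 3.69 counts. On either bound, 7 counts of Obox3 lay above it, in K27R replicate 1, whereas its other values and all values of Obox6 did not. This limit covers counting error only. Neither gene passed the filter on low counts, and no fold change was formed for them. Obox4 and Obox8 were not analysed here.

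**Figure D2:**
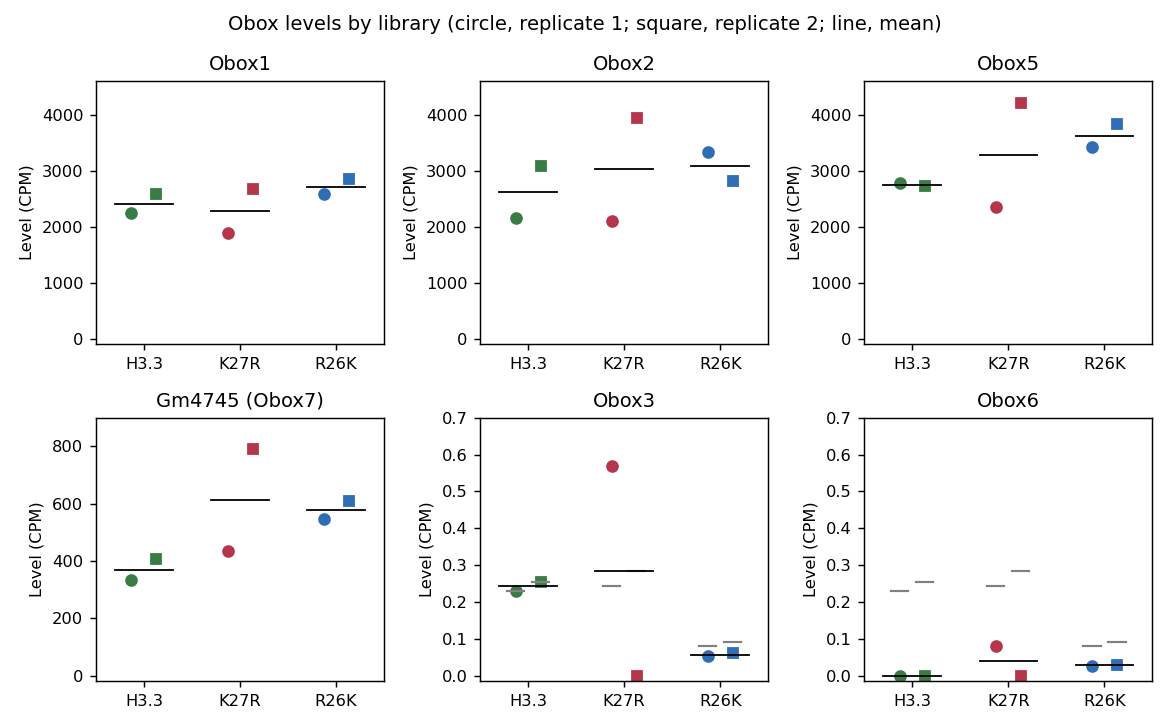
Level of each Obox gene in CPM (vertical axes start at 0 and differ between panels) in the 2 libraries of each group, with the group mean as a line; short grey lines in the Obox3 and Obox6 panels mark the level of 3 counts in each library. K27R replicate 2 is the highest library for Obox2, Obox5 and Gm4745 (Obox7), and Obox3 and Obox6 stay under 0.6 CPM.

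Levels of different genes were compared per kilobase of the annotated transcript. Obox2 had a median of 2020 CPM per kb over the 6 libraries (1443 to 2705), Obox1 1708 (1253 to 1882) and Obox5 1694 (1289 to 2295). These 3 ranges overlapped, so that on this scale, which divides by the whole transcript, their order is within the spread between libraries. Obox7 followed at 333 CPM per kb (225 to 536), below every value of the first 3 genes. Obox3 had a median of 0.0906 CPM per kb (0 to 0.356) and Obox6 one of 0.0101 (0 to 0.0606), with overlapping ranges. The order of the first 3 depended on the length used. Divided by only those 50-base windows that occur unchanged in no other gene, as would fit counts of uniquely placed reads, Obox5 had a median of 2002 CPM per 1000 windows (1522 to 2712), below the ranges of Obox1 (median 4332, 3178 to 4773) and Obox2 (5646, 4033 to 7561). Divided by the windows that no other Obox transcript matches within 2 mismatches, Obox5 had a median of 4630 (3521 to 6273), against 39120 for Obox1 (28700 to 43105) and 35083 for Obox2 (25061 to 46983). Which length suits the deposited counts was not tested, so Obox5 cannot be placed level with or below Obox1 and Obox2. These window scales were added after the data were seen. Obox7 remained below the first 3 genes on all 3 scales, and Obox3 and Obox6 below Obox7.

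Summed over the 5 members, which leave out Gm4745 (Obox7), the level was 7198 and 8388 CPM in H3.3 eggs, 6359 and 10820 CPM in K27R eggs, and 9353 and 9488 CPM in R26K eggs. This sum was 0.676% to 1.05% of all counts of a library. The group means were 7793 ± 842 CPM in H3.3, 8590 ± 3154 CPM in K27R and 9421 ± 95.8 CPM in R26K (SD, n = 2 each). The K27R libraries spanned the values of both other groups. Of the summed counts of these 5 members, Obox5 made up 32.5% to 40.4%, Obox2 29.7% to 36.7% and Obox1 24.7% to 31.3% over the 6 libraries. The 95% exact (Clopper-Pearson) intervals of these shares were narrow, for example 24.4% to 24.9% for the lowest Obox1 share, in K27R replicate 2, and 31.0% to 31.6% for the highest, in H3.3 replicate 1. Such intervals cover counting error only, with each read of a library taken as an independent draw. The reads carry no molecular identifiers, so amplified copies count as separate reads and these intervals can be too narrow. As the values are relative to the messenger RNA in a library, less RNA per egg and fewer eggs cannot be told apart.

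The replicates of a group differed by more than counting error in most cases, and most widely in K27R. In K27R, replicate 2 was above replicate 1 by 0.50 (Obox1), 0.91 (Obox2), 0.83 (Obox5) and 0.86 (Gm4745) on the log2 scale. Counting reads as independent draws gives standard errors of 0.013, 0.011, 0.011 and 0.025 for these differences. In R26K the corresponding differences were 0.14, -0.25, 0.16 and 0.15, and in H3.3 they were 0.19, 0.51, -0.03 and 0.29. The H3.3 difference of Obox5 was the smallest, beside a counting standard error of 0.011. The cause of the wide K27R pair was not tested; these libraries also differed in genes with a count, 10715 in replicate 1 and 7405 in replicate 2. Over all 6 libraries, the coefficient of variation was 13.8% for Obox1, 24.3% for Obox2 and 22.2% for Obox5. Its median over the 100 genes with the highest mean level was 26.7%. For Gm4745 it was 31.8%, but this gene ranked 306th by mean and lies outside that set. Of these 100 genes, 10 had a lower value than Obox1, 31 a lower one than Obox5 and 39 a lower one than Obox2.

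The first comparison asks how eggs with arginine 26 of the tagged H3.3 replaced differed from eggs with the unmutated form. None of the 3 tested members passed edgeR's quasi-likelihood test at an adjusted p under 0.05, where 0.619% of the 10667 genes tested did, and none had an unadjusted p under 0.05, where 21.7% did. DESeq2 called none of the members and 18.7% of the genes to which it gave an adjusted p. Obox5 was at 3628 ± 285 CPM in R26K and 2754 ± 34.8 CPM in H3.3 (SD, n = 2 each), a log2 fold change of 0.40 ± 0.30 (SE; 95% interval -0.33 to 1.12; edgeR adjusted p = 0.484). This interval runs from 0.796-fold to 2.18-fold, so a 2-fold rise lies within it. Obox1 had a log2 fold change of 0.17 ± 0.24 (-0.41 to 0.75; edgeR adjusted p = 0.765), which turned to -0.03 under upper-quartile scaling. Obox2 had one of 0.23 ± 0.35 (-0.62 to 1.08; edgeR adjusted p = 0.786), which was -0.01 without H3.3 replicate 1. For Gm4745 the value was 0.65 ± 0.34 (-0.18 to 1.48; edgeR adjusted p = 0.302). The libraries of the groups did not overlap in CPM for Obox1 and Obox5, 2 of 3 tested members, and this held for 60.1% of all genes tested. For Obox1 this depended on the scaling. As an unscaled share of all counts, Obox1 in R26K replicate 1 (0.240%) lay between the H3.3 libraries (0.231% and 0.265%). The median log2 fold change was 0.23 over the tested members and 0.66 over all genes tested; over the 134 genes whose mean reached 1000 CPM it was -0.30, the opposite sign to that over all genes.

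The second comparison sets eggs with lysine 27 replaced against the unmutated form. Again 0 of 3 tested members were called by edgeR, which called 0% of all genes tested here. At an unadjusted p under 0.05, edgeR gave 0 members and 7.12% of the genes, and DESeq2 called 0 members and 7.6% of the genes with an adjusted p. Obox5 was at 3281 ± 1304 CPM in K27R (SD, n = 2), a log2 fold change of 0.25 ± 0.30 against H3.3 (-0.47 to 0.98; edgeR adjusted p = 0.870). Obox2 had a log2 fold change of 0.21 ± 0.35 (-0.65 to 1.06; edgeR adjusted p = 0.953) and Obox1 one of -0.08 ± 0.24 (-0.66 to 0.50; edgeR adjusted p = 0.991). The direction depended on single libraries: without K27R replicate 2, Obox5 was at -0.23 and Obox2 at -0.32, and without K27R replicate 1 they were at 0.61 and 0.59 and Obox1 at 0.15. Leaving out H3.3 replicate 1 put Obox2 at -0.02, and leaving out H3.3 replicate 2 put Obox1 at 0.02. Gm4745 had the largest difference among the family's tested genes, 0.73 ± 0.34 (-0.10 to 1.56; edgeR adjusted p = 0.522), a value that was 0.24 when K27R replicate 2 was left out and 1.10 when K27R replicate 1 was. Its libraries did not overlap, whereas those of all 3 tested members did, against 25.5% of all genes tested that did not overlap. The median log2 fold change was 0.21 over the tested members, 0.12 over all genes tested and 0.03 over the 134 genes whose mean reached 1000 CPM. Both comparisons share the H3.3 libraries.

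The third comparison sets the substitutions against each other. Of the 3 tested members, 0 were called by edgeR at an adjusted p under 0.05, beside 0.375% of all genes tested. At an unadjusted p under 0.05 it was 0 members beside 13.2%, and by DESeq2 0 members beside 8.83%. K27R minus R26K was -0.25 ± 0.24 for Obox1 (-0.83 to 0.33; edgeR adjusted p = 0.890) on the log2 scale. This value was -0.02 without K27R replicate 1, -0.52 without K27R replicate 2 and -0.02 under upper-quartile scaling. It was -0.14 ± 0.30 for Obox5 (-0.87 to 0.58; edgeR adjusted p = 1), a sign that turned under upper-quartile scaling (0.09) and without K27R replicate 1 (0.21). For Obox2 it was -0.02 ± 0.35 (-0.88 to 0.83; edgeR adjusted p = 1), a value whose sign also turned under several settings. Gm4745 was at 0.08 ± 0.34 (-0.74 to 0.91; edgeR adjusted p = 1), and at -0.41 without K27R replicate 2. The libraries of all 3 tested members overlapped between these groups, whereas 53.8% of all genes tested did not overlap. The median was -0.14 over the tested members and -0.32 over all genes tested, but 0.36 over the 134 genes whose mean reached 1000 CPM.

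**Figure D3:**
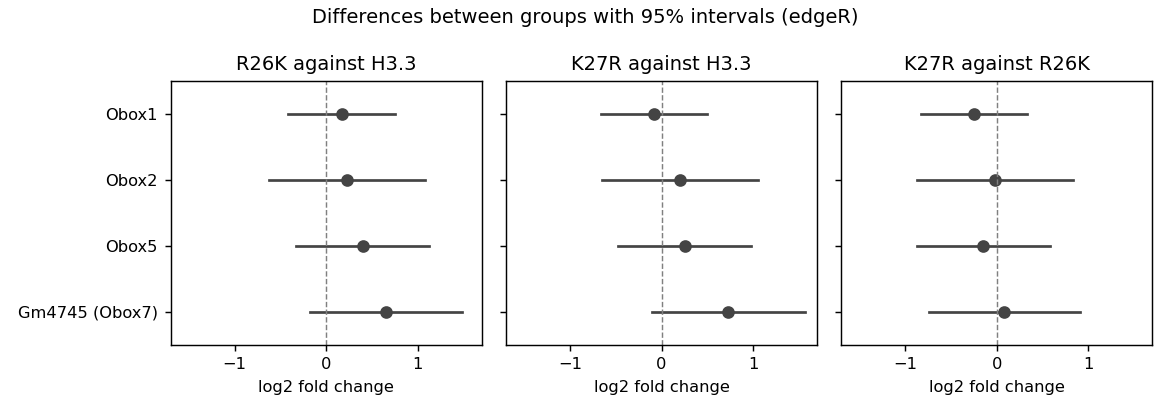
Log2 fold change (first group minus second, horizontal axis) of the 4 Obox genes that could be tested, with 95% intervals derived from edgeR's F statistic, for the 3 comparisons. Every interval includes 0, and those of Gm4745 (Obox7) against H3.3 reach furthest to the right.

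Ratios between members within a library do not depend on the scaling of that library. Obox5 over Obox1 was 1.23 and 1.06 in H3.3 eggs, 1.25 and 1.57 in K27R eggs, and 1.33 and 1.35 in R26K eggs. Obox2 over Obox1 was 0.961 and 1.19 in H3.3 eggs, 1.11 and 1.48 in K27R eggs, and 1.29 and 0.989 in R26K eggs, so that these near-identical genes changed order within both the H3.3 and the R26K group. Gm4745 over Obox1 was 0.148 and 0.158 in H3.3 eggs, 0.230 and 0.296 in K27R eggs, and 0.212 and 0.214 in R26K eggs. Both H3.3 libraries had the lowest ratios of the 6. The same held for Gm4745 over Obox5, at 0.120 and 0.149 in H3.3 eggs, 0.185 and 0.188 in K27R eggs, and 0.160 and 0.159 in R26K eggs. Gm4745 over Obox2 was 0.153 and 0.132 in H3.3 eggs, 0.207 and 0.200 in K27R eggs, and 0.164 and 0.217 in R26K eggs, with the H3.3 libraries again lowest. These 3 ratios share the numerator Gm4745, itself lowest in the H3.3 libraries (332 and 407 CPM), so they restate 1 observation. Over all genes tested, CPM did not overlap with H3.3 for 60.1% in R26K and 25.5% in K27R. How many genes have H3.3 lowest against both groups was not counted. The ratios to Gm4745 were singled out after their values were seen and were not tested, and the denominators were measured in the same libraries.

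**Figure D4:**
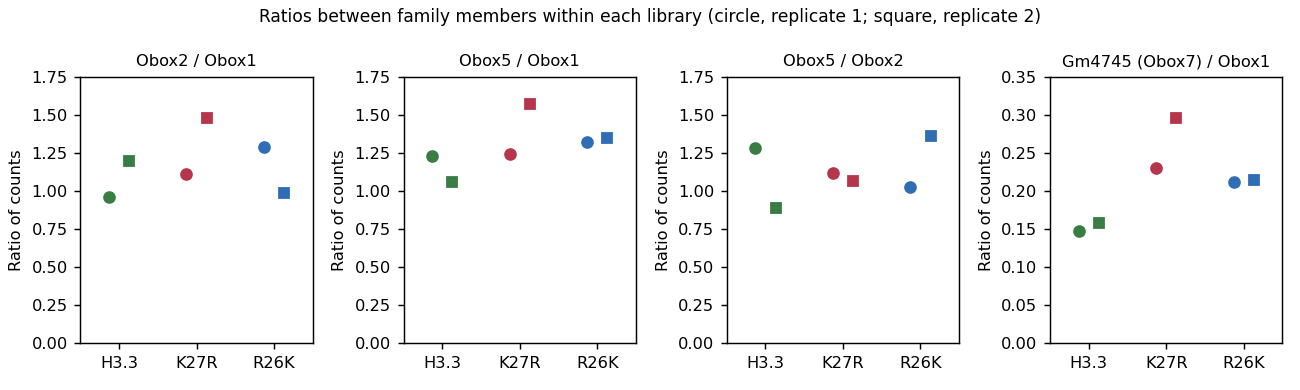
Ratio of counts between family members within each library (vertical axes start at 0; the last panel has its own scale), by group. The ratio of Gm4745 (Obox7) to Obox1 is below 0.16 in both H3.3 libraries and above 0.21 in the other 4, while Obox5 over Obox2 overlaps between groups. The Gm4745 ratio was singled out after its values were seen, and how often other genes show such a gap was not counted.

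Relatives of the family were described from a list of 25 PRD-like and other divergent homeobox genes. Of these, 22 were in the table, 8 had a count in some library and 5 could be tested. In either direction, 0 passed edgeR's test in any comparison. Comparisons are listed in the order R26K against H3.3, K27R against H3.3 and K27R against R26K. Of all genes tested, 0.619%, 0% and 0.375% passed in them. At an unadjusted p under 0.05 there were 3, 1 and 1 of the 5, beside 21.7%, 7.12% and 13.2% of all genes tested. In R26K against H3.3, 3 of the 5 were at 0 in 1 of the groups. With that group set to 3 counts per library, the list's median log2 fold change was 2.52. As given by edgeR, without this setting, it was 7.77. The median over all genes tested, 0.66, was also formed without this setting, so 2.52 is not on its scale. The R26K libraries were the deepest, and the part of depth in these values was not tested. In the other comparisons the list median with this setting was 0.47 over 4 genes and -0.86 over 5. All genes tested, without it, had medians of 0.12 and -0.32. Sebox, an oocyte homeobox gene, stood at 99.4 and 80.6 CPM in H3.3 eggs, 104 and 101 CPM in K27R eggs, and 83.4 and 70.0 CPM in R26K eggs. Nobox, a homeobox gene required for oocyte growth, stood at 67.3 and 44.4 CPM in H3.3 eggs, 124 and 32.7 CPM in K27R eggs, and 145 and 140 CPM in R26K eggs. The R26K libraries were thus the highest for Nobox and 1 of them was the lowest for Sebox. Each of these genes was far below Obox1, Obox2 and Obox5 in every library.

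A list of 12 oocyte regulators held transcription factors with the secreted signals Gdf9 and Bmp15. Of these, 11 were in the table, 10 could be tested and 0 passed in any comparison, beside 0.619%, 0% and 0.375% of all genes tested. At an unadjusted p under 0.05 there were 2, 2 and 0 of the 10, beside 21.7%, 7.12% and 13.2% of all genes tested. Their median log2 fold changes were 0.10, 0.24 and -0.02, beside 0.66, 0.12 and -0.32 over all genes tested. Gdf9, a growth factor secreted by the oocyte, ranged from 11040 to 16125 CPM, and its partner Bmp15 from 2278 to 3122 CPM, close to the Obox1 range. Of 37 factors and early genes of zygotic genome activation, the process the Obox family is known for, 36 were in the table, 26 had a count and 21 could be tested. None passed edgeR's test, beside 0.619%, 0% and 0.375% of all genes tested, and the medians were 0.67, 0.05 and 0.02. At an unadjusted p under 0.05 there were 5, 2 and 4 of the 21, beside the same shares of all genes tested, 21.7%, 7.12% and 13.2%. Klf17, a maternal zinc finger factor, stood at 1114 and 1130 CPM in H3.3 eggs, 1277 and 1045 CPM in K27R eggs, and 1316 and 1244 CPM in R26K eggs, with overlapping groups except for R26K above H3.3. Yap1, a transcriptional coactivator, stood at 354 and 270 CPM in H3.3 eggs, 359 and 323 CPM in K27R eggs, and 167 and 272 CPM in R26K eggs.

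Genes with a pattern like that of Obox5 were taken as the 5 with the highest Pearson correlation of log2(CPM + 1) over the 6 libraries, among 5840 named genes whose mean reached 10 CPM. They were Golga7 (r = 0.987), Rbm38 (0.984), Camta1 (0.976), Furin (0.970) and Hipk2 (0.969), and 33 genes had r above 0.9. Rbm38 encodes an RNA-binding protein and Furin a protease that cleaves precursor proteins. Rbm38 stood at 324 and 287 CPM in H3.3 eggs, 246 and 690 CPM in K27R eggs, and 435 and 493 CPM in R26K eggs, with the lowest and the highest value in the K27R pair, as for Obox5. Within the family, r with Obox5 was 0.830 for Obox1, 0.784 for Obox2 and 0.861 for Gm4745. These values describe 6 libraries that share their depth and scaling between genes, and reads shared between members can raise the values within the family.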

How the data were processed

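Messenger RNA was measured in 6 libraries of MII eggs, 2 per group, named by the sample titles. The SMARTer Ultra Low RNA kit gave the cDNA and the Nextera kit the libraries, which were sequenced from 1 end over 50 bases, per the labels' protocols. The submitters' processing notes name featureCounts, SAMtools 1.3, TopHat2 2.1.0, cutadapt 1.9.1 and build mm10; the annotation, the strand setting and the handling of reads mapping to several places are not given in the sources used here. Values are whole-number, unnormalized counts per gene symbol as deposited by the authors, and 0 columns were left out.

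Levels are CPM after TMM scaling, over the 10667 genes kept by filterByExpr. Differences were tested with edgeR 4.0.16 under R 4.3.3 (glmQLFit, glmQLFTest), with all 6 libraries in 1 fit, two-sided, with Benjamini-Hochberg adjustment over all genes tested and a threshold of 0.05. DESeq2 1.42.0, other scalings and filters, a fit of only the groups compared, a replicate block and leaving out each library were alternatives. The labels call the libraries biological replicates without naming separate females, so p-values measure only the spread between these libraries.

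The members and lists were chosen with earlier results of these data known. Named were all members and any other Obox symbol (there was none), the called members of each list or its 2 genes with the highest mean, and the 5 genes most like the highest member. The Gm4745 row, the shared windows, the frame and the motifs were added after the data were seen. Transcripts are those of GENCODE M21 (mm10) with the RefSeq match, which all 6 genes had. Windows were searched on both strands in transcripts of 55341 genes.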

Additional observations from a re-analysis of the deposited data

How the results depend on the processing

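The count of 0 members called held in each of the 3 comparisons under all 13 alternatives. Of 156 recomputed log2 fold changes of Obox1, Obox2, Obox5 and Gm4745, 140 kept their sign, 16 reversed it and 0 passed the threshold. Under upper-quartile scaling, Obox1 in R26K against H3.3 went to -0.0301, and in K27R against R26K Obox2 went to 0.21 and Obox5 to 0.0920; this scaling moved the median of all genes tested by -0.20 in the first and 0.22 in the last of these comparisons. In K27R against R26K, Obox2 was also at 0.0222 under DESeq2 and RLE scaling and at 0.0245 in a fit of only the groups compared. With single libraries left out, the range for R26K against H3.3 was -0.00841 to 0.51 for Obox2. For K27R against H3.3 it was -0.35 to 0.15 for Obox1, -0.32 to 0.59 for Obox2 and -0.23 to 0.61 for Obox5. For K27R against R26K it was -0.52 to -0.02 for Obox1, -0.55 to 0.36 for Obox2, -0.62 to 0.21 for Obox5 and -0.41 to 0.45 for Gm4745. The libraries deciding these ends were mostly the K27R pair; where it left 1 library in a group, that library was assumed to vary like the others. Differences between replicates 1 and 2 were not correlated between groups (0.01, -0.01 and 0.01 over 6145 genes). Whether libraries of the same number shared a batch was not tested. With the number as a replicate block, 0 members were called, Obox5 was at 0.39, 0.21 and -0.18 in the 3 comparisons, and calls over all genes went from 66 to 260 (R26K against H3.3) and from 40 to 195 (K27R against R26K). Calls over all genes also moved with the tool, with 1644, 685 and 759 by DESeq2, and with the filter, with 241 and 156 in those comparisons without one and 157 and 95 at 10 CPM; fitting only the groups compared gave 0 in the first. With single libraries left out, calls over all genes ranged from 1 to 193, 0 to 5 and 0 to 140. The cause of these changes was not tested. With 2 libraries a group the 95% intervals of the tested members reach from 0.545-fold to 2.18-fold.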
